A study of Dugesia japonica with 19 samples.

Results

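In the planarian Dugesia japonica, 138 of 2882 assembled transcript contigs carried 6 or more distinct candidate sites of N6-methyladenosine (m6A), and these contigs are described here. A contig is a transcript sequence put together from reads, and a site is a position on 1 strand of it that was listed in at least 1 of 18 tissue libraries. The 138 contigs were chosen by their number of listed sites alone, so that number, and the density that follows from it, are given as a description and were not tested. They held 1136 of the 5847 sites (19.4%), 5852 of the 23432 listings of a site in a library, and 81.7% of the reads at listed sites. Each of the 138 came from a different assembled gene, as far as the assembly's names show, and the files pair no contig with a gene name, so contigs are called by their assembly identifiers without the shared prefix TRINITY_. Contig sequences were not used here, and sites are described by position.

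The animals were planarians of unnamed strain and age, with no transgene or drug named in the labels, and each was separated into head, trunk and tail pieces. Pieces of 10 to 20 animals were pooled for each library of polyadenylated RNA. There was 1 library per tissue on each of days 0, 1, 3, 5, 7 and 10, and 1 control library of RNA copied in vitro from intact animals, which carries no modified base. The study addressed m6A dynamics while the head-to-tail axis is specified, and the labels do not say how the days relate to a cut. Since each tissue had a single pooled library on a day, its 6 days took the place of replicates, and p-values measure only the spread between these libraries. A pooled piece holds many cell types, so a difference in cell makeup and a difference in methylation per transcript cannot be told apart.

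m6A is placed on adenosines of messenger RNA by a methyltransferase complex, is read by YTH-domain proteins, and is known in many animals to affect how long a transcript lasts and how it is translated. In planarians, adult stem cells called neoblasts renew all tissues and rebuild missing parts after a cut. The assay, m6A-REF-seq, uses the bacterial enzyme MazF, which cuts RNA at the motif ACA only where the first A is unmethylated. The share of reads left uncut at a motif therefore rises with methylation, and the level of a site was its uncut share in a library minus that in the control. An uncut share of 1 is a site at which no cut read was seen.

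The control limited what a site could show. The control's uncut share was 0.71 in the median member site (0.706 on other contigs), although the control carries no m6A, and 24.7% of member sites had a control share below 0.5. This share varied mostly within contigs: 16.9% of its variance lay between contigs, and the median contig spanned 0.582 from its lowest to its highest control share. No listed level lay below 0.1, so a site with a high control share was listed only over a narrow range of uncut shares. In 80.6% of member listings no read was cut, 23.6% rested on 1 read and 57.9% on fewer than 10. Member reads per library ran from 3723 (head, day 10) to 789856 (trunk, day 5), and the contig DN678_c0_g2_i4 alone took 68.4% ± 15.6 of them in head, 92.6% ± 1.51 in trunk and 80.6% ± 9.79 in tail (SD, n = 6 days).

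The members ran from 6 to 23 sites, and most were close to the threshold. There were 44 contigs with 6 sites, 37 with 7, 17 with 8, 8 with 9 and 32 with 10 or more. DN678_c0_g2_i4 had the most, 23 sites over 5705 bases. It was followed by DN42680_c3_g1_i2 with 21 sites over 3099 bases and DN2158_c0_g1_i12 with 20 over 1840. DN1290_c0_g1_i7 and DN111_c0_g1_i1 had 15 each, and DN420_c1_g1_i2, DN2230_c1_g4_i1 and DN180_c0_g1_i11 had 14 each. DN60241_c0_g1_i1 and DN19066_c0_g1_i2 had 13 each. Just outside the threshold lay 88 contigs with 5 sites, whose median density of 3.61 sites per 1000 bases was close to the 3.76 of the contigs with 6.

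Site density differed more than 10-fold between members. The median was 4.06 sites per 1000 bases of contig, and the range ran from 0.931 to 12.1. The densest was DN8983_c0_g1_i2 (9 sites over 742 bases), followed by DN182285_c0_g1_i2 at 11.8, DN182689_c1_g1_i1 at 10.965, DN2158_c0_g1_i12 at 10.9 and DN60241_c0_g1_i1 at 10.7. These 5 were the members above 10 per 1000 bases, and 17 members lay below 2. The median member was 1910 bases long against 1686 for contigs with fewer sites, and length and number of sites went together weakly over the 138 members (Pearson r = 0.262, Spearman rho = 0.251, a description). Of the contigs with fewer than 6 sites, 118 were denser than the median member, so a count of 6 did not by itself mark dense contigs.

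Neighbouring sites were often close together. Of the 998 pairs of neighbouring sites, the median gap was 86 bases, with quartiles of 32.25 and 185 and a range of 1 to 7817. A gap of 30 bases or less separated 22.8% of neighbours, and 100 bases or less separated 54.4%. The sites of the median member spanned 51.1% of its length. In 31 members at least 4 sites fell within 100 bases, and the tightest run was on DN8520_c0_g3_i2, with 5 sites within 100 bases from base 357. All 6 sites of that contig were listed in tail only. In contrast, on DN678_c0_g2_i4 the median gap was 242 bases and the sites reached from base 220 to base 5422. Gaps fell evenly on the 3 remainders after division by 3, with 337, 332 and 329 pairs.

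Along the contig, read in the direction of the strand that held most of its sites, sites were thinner at both ends. With the contig divided into 10 equal parts, the first part held 3.5% of majority-strand sites and the last 6.28%, while parts 8 and 9 held 14.2% and 13.7%. The median relative position was 0.563 of the contig's length, next to 0.575 on other contigs. The direction of a contig's reading frame is not given in the files, so these positions do not name untranslated or coding regions.

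**Figure D1:**
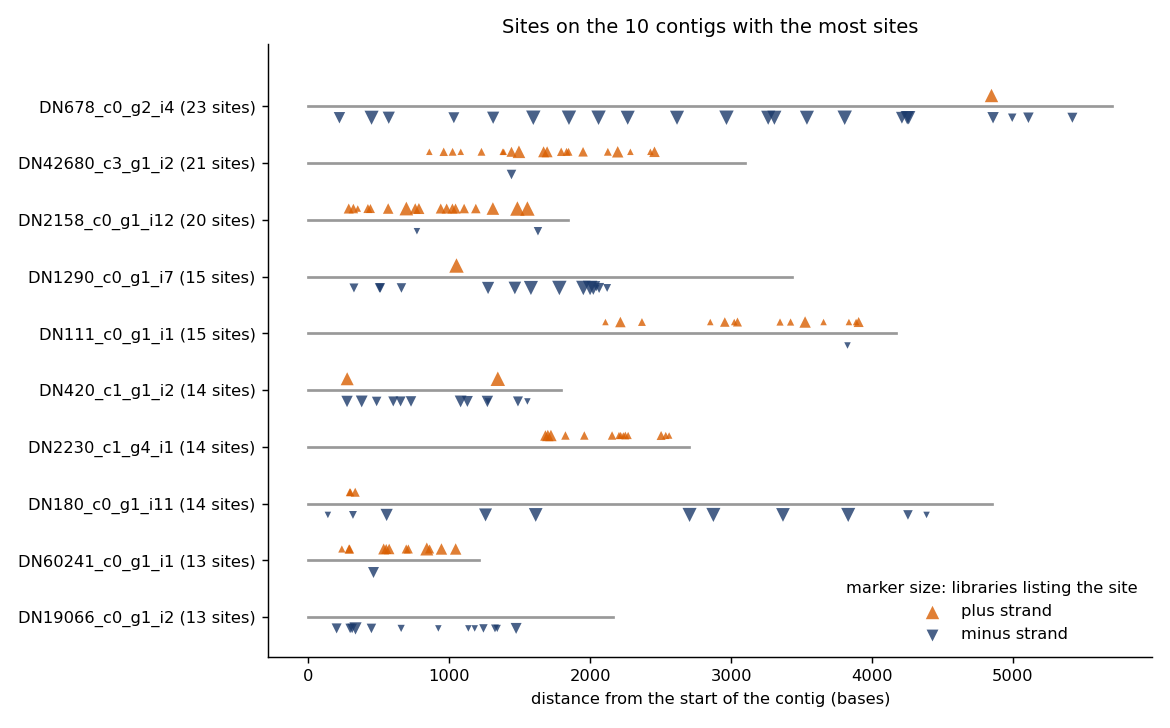
Positions of all sites on the 10 contigs with the most sites, in bases from the contig start, with plus-strand sites above each line and minus-strand sites below; larger markers were listed in more of the 18 libraries. Sites of DN678_c0_g2_i4 spread over nearly the whole contig, those of DN111_c0_g1_i1 and DN2230_c1_g4_i1 lay past the middle, and 8 of the 10 contigs had their sites on both strands.

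Most members carried sites on both strands. All sites lay on 1 strand in 51 members and on both in 87 (63.0%, against 42.5% of contigs with 2 to 5 sites, which have fewer chances to show both). The strand with more sites, the majority strand, was minus in 84 members and plus in 50, and 4 were tied. It held 972 sites, the minority strand held 134, and 45 members had exactly 1 minority site. DN2852_c1_g1_i5, 8016 bases long, had 6 sites on each strand. DN6100_c0_g2_i1 had 4 and 5, and DN182689_c1_g1_i1 had 3 and 7. The motif on the minus strand reads as its complement on the plus strand. The labels do not say whether the libraries kept the strand of the RNA, so a site on a transcript's own strand and a site on an antisense transcript cannot be told apart.

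The closest approach of 2 sites depended on their strands. Over all contigs, the smallest gap between sites on the same strand was 4 bases, between a plus site and the minus site after it 5, and between a minus site and the plus site after it 1. There were 44 pairs of the last kind closer than 5 bases, 20 of them on members. A minority site lay a median of 54 bases from the nearest majority site, and 28 of the 134 lay within 10 bases of one.

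Minority-strand sites made up more of the head lists than of the others. In head, 19.7% ± 0.914 of listed member sites were on the minority strand (SD, n = 6 days), with a lowest day of 18.4, a median of 19.5 and a highest of 21.1. In trunk it was 8.63% ± 0.797, from 7.67 through 8.715 to 9.49. In tail it was 7.77% ± 0.989, from 5.82 through 8.03 to 8.51. Every head library lay above every trunk and tail library, while trunk and tail overlapped. Head exceeded trunk by 11.1 ± 1.17 percentage points and tail by 11.9 ± 0.845, and trunk minus tail was 0.86 ± 1.46 points. These values are a description with no test. Which strand is the majority was set by the same listed sites that chose the members, more of them from tail than from head or trunk, and the comparison was noticed in the values.

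The minority sites differed from the majority sites in other readouts too. Their median control share was 0.8 against 0.686, their median level 0.2 against 0.29, and their median reads per listing library 10.4 against 4.78. They were listed in head at 104 of 134 sites (77.6%), in tail at 53.0% and in trunk at 37.3%, while majority sites were listed in tail at 78.3%, in trunk at 52.3% and in head at 48.1%. Head libraries also had more reads per member site, with a mean over days of the median of 12.75 against 4.917 in trunk and 3.667 in tail, and the part of this in the strand difference was not tested.

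**Figure D2:**
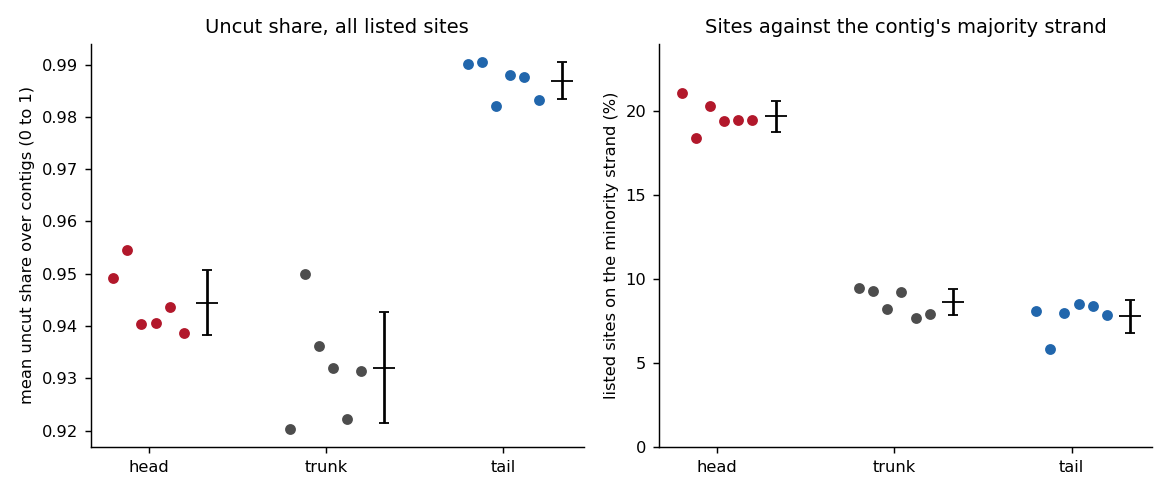
Each coloured point is 1 library, ordered by day within a tissue, and the black bar is the mean and SD of the 6 days; the left panel gives the mean over members of a contig's uncut share at all its listed sites, and the right panel the percentage of listed member sites on the minority strand. Tail libraries lie highest on the left (0.982 to 0.9904), where sites and depth differ between tissues. Head libraries lie highest on the right (18.4 to 21.1%).

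By tissue, the largest number of member sites was listed in tail, and much of that lead came from 1 library. Of the 1136 member sites, 844 (74.3%) were listed on some day in tail, 596 (52.5%) in head and 570 (50.2%) in trunk. On other contigs head came first, with 70.9% of their sites, ahead of 43.0% in tail and 36.2% in trunk. Members were chosen by these same listings, so the contrast with other contigs is a description and was not tested. Most sites were in tail in 82 members, in head in 30 and in trunk in 9, with 17 tied. Sites listed in 1 tissue only numbered 284 in tail, 182 in head and 57 in trunk, and 261 were listed in all 3. The tail library of day 7 alone listed 727 member sites on 580804 reads, against 189 to 420 sites in the other tail libraries, and head listed more member sites than tail on 3 of 6 days.

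Without the day 7 tail library, an alternative chosen after seeing the data, tail listed 618 member sites (54.4%), close to the 596 of head, and 28.4% of sites on other contigs. Most sites were then in tail in 50 members, in head in 37 and in trunk in 28, with 23 tied, and 163 sites were in tail only against 217 in head only and 90 in trunk only. That library also bore on membership, since 110 contigs would have had 6 or more sites without it and 121 member sites were listed in it alone. As a share of each library's own list, members made up 17.4% ± 1.77 in head, 28.5% ± 1.39 in trunk and 37.5% ± 3.94 in tail (SD, n = 6 days), and the lowest tail library, day 7 at 30.6%, lay above the highest trunk library at 30.2%. The listings that set membership came from these same libraries, with the most member sites in tail. These shares can therefore follow from the choice of contigs, and they were not tested. Single contigs differed. DN111_c0_g1_i1 had 15 sites in tail, 8 in trunk and 1 in head, and DN2852_c1_g1_i5 had 11 in head and 3 in each of trunk and tail. Among all sites, 39 were in all 18 libraries, and 22 of these lay on members, on 10 contigs. At the other end, 259 member sites were in 1 library only. Listing depends on reads, so a missing listing is not a lower level.

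Whether uncut shares differed between tissues was asked at sites listed in both libraries of a day, where the control share cancels. On member contigs, head was lower than trunk and tail, and trunk lower than tail, each at the sites that pair shared. The 3 pairs rest on different sites, so an order of all 3 tissues at common sites was not examined. Head averaged 0.943 ± 0.0093 against 0.983 ± 0.00427 in trunk at the sites they shared, a difference of -0.0402 ± 0.0115 (SD, n = 6 days, mean over contigs), negative on 6 of 6 days and between -0.0522 and -0.0258. Head averaged 0.942 ± 0.014 against 0.995 ± 0.00235 in tail, a difference of -0.0527 ± 0.0154, from -0.0794 to -0.0374. Trunk averaged 0.929 ± 0.021 against 0.984 ± 0.00683 in tail, a difference of -0.055 ± 0.0198, from -0.0858 to -0.0305. The 3 comparisons share libraries, and each gave an exact two-sided sign-flip p of 0.03125 over 6 days (adjusted p = 0.03125), the smallest this design allows, and each day rested on 62 to 228 shared sites. Without any 1 day the smallest possible p is 0.0625, and the differences stayed negative.

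Over all sites a library listed, shared or not, the order of head and trunk was not the same. Head had a mean contig uncut share of 0.9445 ± 0.00619, trunk 0.932 ± 0.0106 and tail 0.9869 ± 0.00352 (SD, n = 6 days), with tail above every head and trunk library and head and trunk overlapping. These means rest on different sites in each tissue, and no test was run on them. A listing on 1 read can only stand at an uncut share of 1, because no level below 0.1 was listed. Such listings made up 19.92% ± 10.7 in head, 27.35% ± 2.84 in trunk and 29.77% ± 8.83 in tail. Their part in these means was not tested.

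The size of the differences depended on which sites and reads were counted. Most values at shared sites were equal: of 650 site and day values of head and trunk, 368 were equal, 241 lower in head and 41 higher. Head and tail were equal in 398 of 651, with 222 lower in head and 31 higher, and trunk and tail in 607 of 946, with 265 lower in trunk and 74 higher. With at least 10 reads in both libraries the differences were -0.0671, -0.0858 and -0.0863 for head minus trunk, head minus tail and trunk minus tail. At sites whose control share was under 0.5, where a site can fall further before it leaves the list, they were -0.142, -0.194 and -0.155 (exact p = 0.03125 for each). With all reads pooled, so that DN678_c0_g2_i4 counts most, they were -0.165, -0.168 and -0.0114 (exact p = 0.03125, 0.03125 and 0.125), so that the last did not pass. The head day 10 library was the shallowest, and without day 10 the 3 values were -0.0389, -0.0474 and -0.0555.

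The same differences were present on contigs with fewer sites. There head lay at -0.0466 ± 0.0147 relative to trunk and -0.0641 ± 0.0202 relative to tail, and trunk at -0.0554 ± 0.0118 relative to tail. The member difference minus that of the other contigs was 0.00641 ± 0.0245 (negative on 3 of 6 days, exact p = 0.562, adjusted p = 0.844) for head minus trunk. It was 0.0115 ± 0.0336 (2 of 6 days, exact p = 0.469, adjusted p = 0.844) for head minus tail and 0.000478 ± 0.0243 (3 of 6 days, exact p = 0.969) for trunk minus tail. Gaps of up to a few hundredths in either direction lie within this spread, so the tissue differences were not shown to be particular to many-site contigs.

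**Figure D3:**
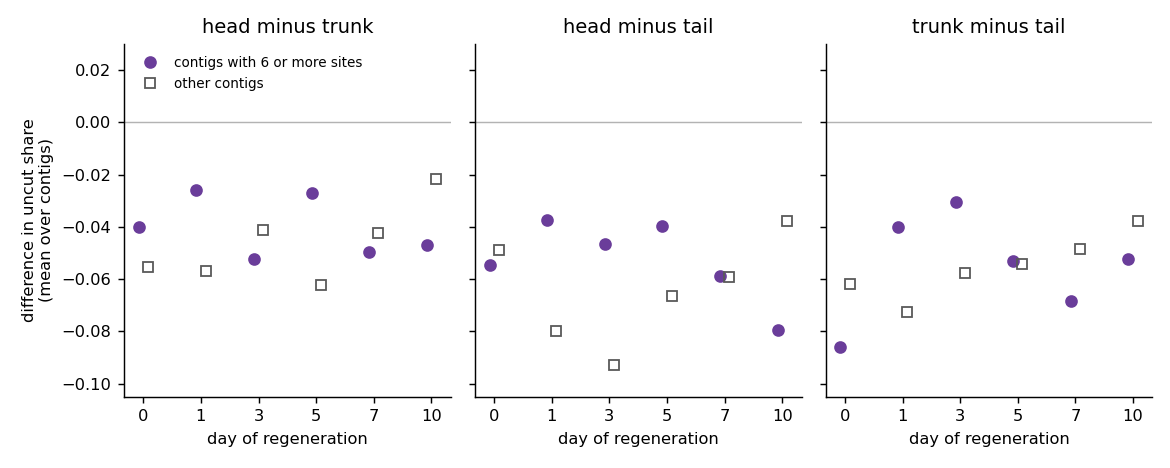
Difference in uncut share between tissues at shared sites, as a mean over contigs, on each of the 6 days; filled circles are contigs with 6 or more sites and open squares all other contigs. Every point lies below 0, and the 2 kinds of contig trade places from day to day.

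No difference between day 0 and later days was detected on members. At shared sites day 0 minus later days averaged 0.00217 over the tissues (0.000304 in head, 0.00139 in trunk, 0.00481 in tail; exact two-sided permutation of which day of each tissue is day 0, p = 0.491). In the limma fit with tissue as a block, 0 of 142 member sites tested on 57 contigs passed, against 0.243% of all 411 sites. At an unadjusted limma p under 0.05, 4 were lower and 1 higher at day 0, and neither a logit scale nor a quasi-binomial model called any. When sites listed at day 0 in any tissue were admitted, 2 of 304 were called, both higher at day 0.

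Single sites were then tested with limma on all sites that both tissues had on 4 days or more, with day as a block and Benjamini-Hochberg adjustment over the whole table. For head minus trunk, 9 of 102 member sites were lower in head and 0 higher, on 6 contigs (8.82%, against 5.76% of all 278 sites tested). For head minus tail, 9 of 86 were lower in head and 0 higher (10.5%, against 10.8% of 176), and for trunk minus tail, 4 of 121 were lower in trunk and 0 higher, on 3 contigs (3.31%, against 3.33% of 270 lower, 0.37% higher and 3.7% in either direction). The shares called were near the background for head minus tail and trunk minus tail and above it for head minus trunk, a difference that was not tested. At an unadjusted p under 0.05 the members counted 25 lower and 1 higher, 22 and 0, and 18 and 1. On a logit scale, where a site without a cut read depends on its depth through the pseudocount of 0.5 reads, 31 were called lower and 13 higher, 16 and 5, and 19 and 18, so the lack of calls in the other direction holds for the fit on shares. The median difference over tested member sites was -0.000906 for head minus trunk and 0 for the other 2. These 22 calls fell on 16 sites of 10 contigs. The counts changed when single days were left out: without day 0, 1, 3, 5 or 7 head minus trunk gave 4 or 5 calls, and without day 10 it gave 14. The minimum of 4 days stayed in these fits, so fewer member sites were tested. There were 66 to 89 for head minus trunk, 52 to 66 for head minus tail and 80 to 106 for trunk minus tail. Head minus tail gave 4 without day 0 or day 7, 5 without day 1 and 15 without day 10, and trunk minus tail gave 2 without day 0, 3 or 5. Of the 22 calls, 9 at 6 sites held under each of the 5 other settings run and without each day in turn.

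DN678_c0_g2_i4 held 4 of the called sites, and at 2 of them a large share of reads was cut in head and few in the other tissues. At base 3263 the uncut share in head was 0.305 at its lowest, 0.344 in the median and 0.373 at its highest over 5 days (median 9550 reads). In trunk it was 0.955, 0.977 and 0.988 over 6 days (median 17966 reads), and in tail 0.929, 0.954 and 0.985 (median 404.5 reads). Head did not overlap with either tissue, and the control stood at 0.179. The limma difference was -0.638 ± 0.0123 (SE) against trunk (adjusted p = 0.000111) and -0.609 ± 0.0172 against tail (adjusted p = 0.000163), lower in head on 5 of 5 shared days in both.

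The site at base 448 of the same contig had a similar pattern. Head ranged from 0.284 through 0.466 to 0.532 over 5 days (median 22496 reads), trunk from 0.928 through 0.942 to 0.968 (28136 reads) and tail from 0.935 through 0.956 to 0.966 (513.5 reads), with the control at 0.122. Again no head library overlapped with another tissue. The limma difference was -0.516 ± 0.043 against trunk (adjusted p = 0.0107) and -0.531 ± 0.0397 against tail (adjusted p = 0.00292), on 5 of 5 shared days.

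The other called sites of DN678_c0_g2_i4 moved less. At base 3806, head ran from 0.873 to 0.983, trunk from 0.995 to 0.998 and tail from 0.978 to 1, so that head and tail overlapped (limma -0.0892 ± 0.0164, adjusted p = 0.0475 against trunk and -0.0887 ± 0.0171, adjusted p = 0.0344 against tail, 6 of 6 days). At base 3538, nearly fully cut in the control (0.0265), head ran from 0.502 to 0.71, trunk from 0.481 to 0.802 and tail from 0.707 to 0.898, with every pair of tissues overlapping (limma -0.158 ± 0.0295 for head minus tail, adjusted p = 0.0466). The base 3806 calls were lost without day 0, 1, 3 or 7, and also without day 5 against trunk, and the base 3538 call was lost without day 0, 1, 5 or 7. The calls at both bases were also lost when sites on at least 3 days in both tissues were tested. The base 3538 call was further lost on the logit scale and without the day block. The other 19 sites of the contig were not called in any pair. Head listed only 18 of the 23 sites, so not all could be compared with head. At base 2059, for example, head stayed between 0.991 and 0.999 on a median of 20162 reads, and trunk and tail were at 1 to 3 decimals. Its control share of 0.795 left it only a narrow range. A site that was not called was not always unchanged. Base 4260 (control 0.286) differed by -0.101 for head minus trunk and -0.133 for head minus tail, over at least 3 shared days. The lowest mean uncut share on the contig was 0.671 at base 3538.

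DN1290_c0_g1_i7, the contig with the next most reads (6.96% of all member reads), held 4 called sites between bases 1579 and 2022. At base 1951 the uncut share in head ran from 0.27 through 0.291 to 0.465 (median 994 reads). In trunk it ran from 0.552 through 0.815 to 0.944 (2705 reads) and in tail from 0.928 through 0.97 to 0.988 (365.5 reads). Head lay below every other library, while trunk and tail overlapped. The control was 0.116, and the limma difference was -0.464 ± 0.0532 against trunk (adjusted p = 0.0118) and -0.646 ± 0.0277 against tail (adjusted p = 0.000163), on 6 of 6 days.

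The other 3 called sites of this contig differed by little. At base 1999, 48 bases on, trunk ran from 0.983 to 0.991 and tail was at 1, rounded to 3 decimals, on every day (limma -0.0131 ± 0.00099, adjusted p = 0.00359, 6 of 6 days). At base 2022 trunk ran from 0.86 to 0.88 and tail from 0.902 to 0.954 (limma -0.0557 ± 0.00907, adjusted p = 0.0383), a call lost without any 1 of days 0 to 7. At base 1579 head ran from 0.931 to 0.971 over 5 days and trunk from 0.999 to 1 (limma -0.047 ± 0.00755, adjusted p = 0.0475), and it was lost without any 1 of days 0 to 7 as well. The calls at bases 2022 and 1579 were also lost when sites on at least 3 days in both tissues were tested. The base 2022 call was further lost on the logit scale. The 2 tissues compared did not overlap at any of these 3 bases. At base 1465, which was not tested because head listed it in 1 library, head stood at 0.135 on 37 reads against 0.974 ± 0.0277 in trunk and 0.996 ± 0.00543 in tail (SD, n = 6 days), with the control at 0.0326.

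**Figure D4:**
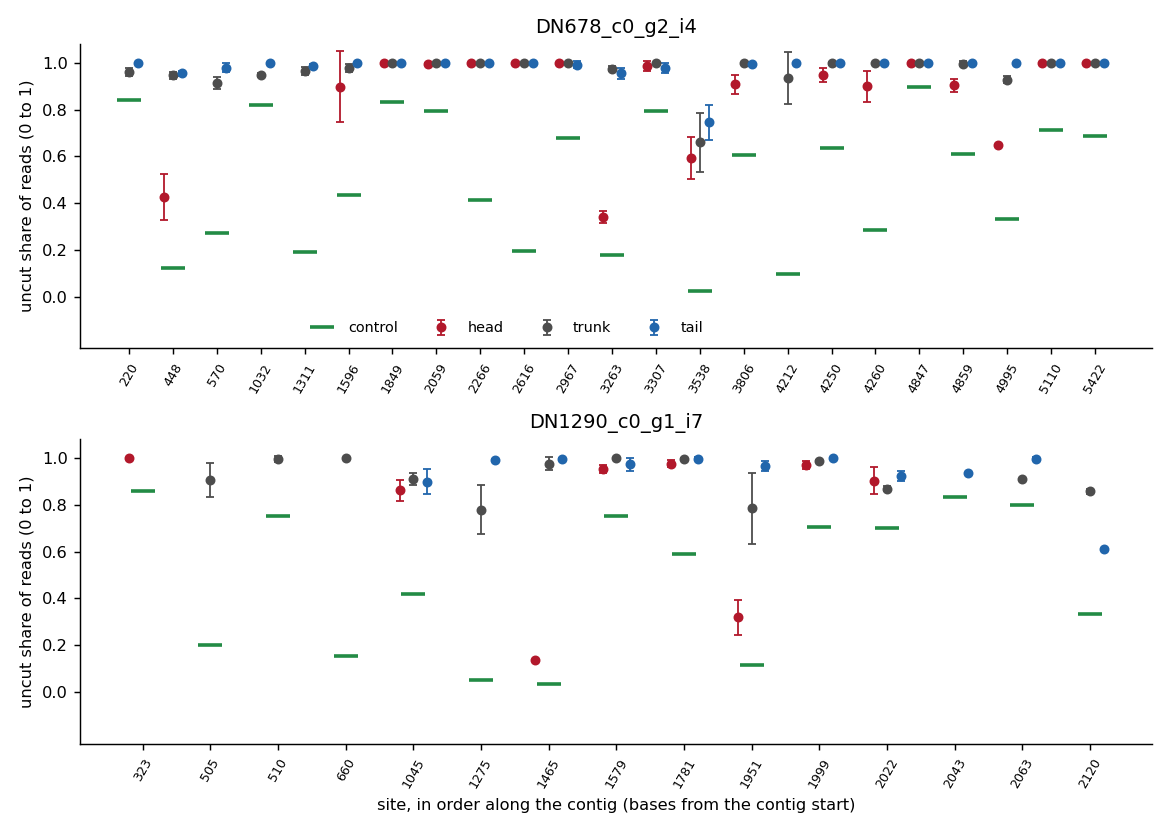
Uncut share at every site of DN678_c0_g2_i4 (23 sites) and DN1290_c0_g1_i7 (15 sites), in order along the contig; points are the mean and bars the SD over the days on which a tissue listed the site, and green dashes are the control share, which has no replicate. A tissue with no point did not list the site, and bars that pass 1 are an effect of the symmetric SD. Head falls far below trunk and tail at bases 448 and 3263 of the first contig and 1951 of the second, and at base 1465 of the second in the 1 head library that lists it. Bases 3307 and 1999, the next sites after 3263 and 1951, stay above 0.94 in head.

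On the other 8 contigs with the most sites, the lowest mean uncut share ran from below that of the first 2 to nearly 1. It was 0.556 at base 292 of DN60241_c0_g1_i1 over 5 libraries, 0.777 at base 1487 of DN420_c1_g1_i2 over 7 and 0.804 at base 1441 of DN42680_c3_g1_i2 over 7. On DN180_c0_g1_i11 it was 0.579 at base 4387, listed in 1 library. It was 0.838 on DN111_c0_g1_i1 (base 3045), 0.864 on DN19066_c0_g1_i2 (base 200), 0.931 on DN2158_c0_g1_i12 (base 1309) and 0.982 on DN2230_c1_g4_i1 (base 1682). All 10 contigs also had sites with a mean of 1 to 3 decimals.

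The remaining calls lay on 8 contigs. DN11867_c10_g1_i1 (12 sites, all minus) was lower in head at base 745, where head ran from 0.301 through 0.319 to 0.436, trunk from 0.5 through 0.86 to 0.9 and tail from 0.5 through 0.753 to 0.873 (control 0.171). The limma difference was -0.443 ± 0.0564 against trunk (adjusted p = 0.0157, 0.0512 without day 5) and -0.4 ± 0.0529 against tail (adjusted p = 0.00874), on 6 of 6 days. Head again overlapped with neither tissue.

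DN1568_c0_g1_i6 was lower in trunk than in tail at base 2353, with trunk from 0.835 through 0.862 to 0.922 and tail from 0.995 through 1 to 1 (limma -0.127 ± 0.0135, adjusted p = 0.00961, 6 of 6 days). DN1930_c0_g2_i6 was lower in trunk at base 225, from 0.286 through 0.315 to 0.541 against 0.895 through 1 to 1 in tail (limma -0.631 ± 0.0679, adjusted p = 0.0257, 5 of 5 days). That call rested on a median of 36 and 18 reads and was lost without day 0, 3, 5 or 7, and in the quasi-binomial model of the reads, where its adjusted p was 0.057. Neither pair of ranges overlapped.

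Head was lower on 5 further contigs. DN10090_c0_g1_i9 at base 1694 had 0.856 to 0.951 in head and 0.967 to 0.99 in trunk (limma -0.0613 ± 0.0114, adjusted p = 0.0475, 6 of 6 days), and DN4102_c0_g3_i3 at base 4531 had 0.788 to 0.877 and 0.995 to 1 (-0.17 ± 0.0199, limma adjusted p = 0.0475, 4 of 4 days). The first was lost without day 0, 1, 3 or 5. The second could be refitted in only 2 of the fits with a day left out. It was lost in 1 of these, without day 0. Both calls were also lost when sites on at least 3 days in both tissues were tested. The other 3 rested on few reads in trunk or tail. DN13046_c0_g1_i1 at base 1061 had head at 0.407 to 0.5, trunk at 0.818 to 1 and tail at 1, with a median of 3 reads in each of the last 2 tissues (limma adjusted p = 0.0246 and 0.00213, 3 of 3 days). DN75235_c2_g1_i1 at base 376 had 0.68 to 0.808 in head and 1 in tail on a median of 2.5 reads (limma -0.266 ± 0.0221, adjusted p = 0.0117). DN50865_c0_g1_i1 at base 381 had 0.722 to 0.916 in head and 1 in tail on a median of 1 read (limma -0.188 ± 0.0359, adjusted p = 0.0485), lost without day 0, 1, 3 or 7. The difference at DN13046_c0_g1_i1 and at the last 2 contigs did not pass in the quasi-binomial model either. On the logit scale the last 2 did not pass, and DN50865_c0_g1_i1 also failed with sites on at least 3 days. With a day left out, DN13046_c0_g1_i1 could be refitted in only 2 fits against trunk and 1 against tail, and DN75235_c2_g1_i1 in 2. The calls of these 2 contigs held in those fits.

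Averaged over a contig's shared sites, differences were smaller than at these sites. Among members with at least 3 shared sites on at least 4 days, head was lower than trunk in 16 of 23 contigs, higher in 4 and equal in 3 (median -0.0196). Head was lower than tail in 23 of 29 (3 higher, median -0.0359) and trunk lower than tail in 28 of 37 (4 higher, median -0.0242). DN1290_c0_g1_i7 (-0.129 ± 0.0827) and DN11867_c10_g1_i1 (-0.115 ± 0.00937) fell furthest against trunk, each on 6 of 6 days (SD over days). DN6491_c0_g1_i4 (0.0904 ± 0.194) and DN431_c0_g1_i2 (0.0346 ± 0.0742) were furthest the other way, within their spread.

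Against tail, head was lowest on DN47845_c0_g1_i1 (-0.284 ± 0.105, 5 of 5 days) and DN1290_c0_g1_i7 (-0.167 ± 0.0685). On DN47845_c0_g1_i1 the site at base 559 had 0.25, 0.5 and 0.571 in head on 3 days against 1 in tail, on medians of 4 and 2 reads. DN6142_c0_g1_i4 (0.0292 ± 0.0468) and DN1221_c0_g1_i11 (0.000678 ± 0.0124) were highest. Trunk was lowest against tail on DN1930_c0_g2_i6 (-0.606 ± 0.212, 5 of 5 days) and DN11296_c0_g1_i2 (-0.362 ± 0.292, 3 of 4 days), and highest on DN15263_c0_g1_i1 (0.0182 ± 0.0365) and DN59022_c1_g1_i1 (0.0177 ± 0.0998). These contigs were picked as extremes, so their values are a description with no test.

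Few neighbouring pairs differed between tissues at both sites, and most single sites did not differ by over 0.05 either. Over sites with at least 3 shared days, each site was set beside the next such site on its contig. For head minus trunk, both sites of a pair were lower by over 0.05 in 2 of 52 pairs, 1 of the 2 in 19, and neither in 31. For head minus tail the counts were 3, 18 and 29 of 50 pairs, and for trunk minus tail 3, 30 and 55 of 88. Of single sites, 22 of 109, 19 of 96 and 33 of 147 were lower by over 0.05 in the 3 comparisons. At such rates few pairs would have both sites lower even if neighbours were unrelated, and the counts were not tested against this. The correlation of the 2 differences over these pairs was r = -0.0899, -0.0246 and 0.0891, a description over pairs that share contigs and libraries. The site 44 bases after base 3263 of DN678_c0_g2_i4 differed by -0.0122 between head and trunk, and the one 48 bases after base 1951 of DN1290_c0_g1_i7 by -0.0171.

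Large drops were few among the sites compared, and mostly stood alone. For head minus trunk, 7 sites on 6 contigs were lower by over 0.2, and in 0 of the 8 pairs that held such a site was its partner also lower by over 0.2. For head minus tail it was 7 sites on 6 contigs and 0 of 8 pairs, and for trunk minus tail 13 sites on 11 contigs and 1 of 12 pairs. The 1 pair was bases 876 and 909 of DN13840_c1_g1_i1, where trunk minus tail was -0.475 and -0.43 in uncut share, and it was named after its values were seen. The partner was lower by over 0.05 in 1 of 8, 2 of 8 and 2 of 12 of these pairs. They include, also named after their values were seen, bases 490 and 559 of DN47845_c0_g1_i1 at -0.176 and -0.56 (head minus tail) and bases 587 and 758 of DN2661_c12_g1_i2 at -0.423 and -0.119 (trunk minus tail). On DN678_c0_g2_i4, base 1596, the next site after base 448 with enough shared days, differed by -0.0798 between head and trunk and by -0.103 between head and tail. Sites with such drops had a low control share, with medians of 0.171, 0.171 and 0.0715 against 0.728, 0.722 and 0.656 at the rest. A site with a control share of 0.7 cannot be listed at an uncut share below 0.8, so the lack of a drop at a neighbour with a high control share cannot be told apart from the limit of the listing.

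Around the called sites, neighbours on 3 or more shared days mostly differed little, while some with fewer days differed much. Of 38 neighbours, counting each comparison, 19 had values on at least 3 shared days: 14 of these were within 0.05 of 0, 5 were lower by over 0.05 and 0 were higher. Another 5 had values on 1 or 2 shared days. The difference was -0.836 at base 1465 of DN1290_c0_g1_i7 (head minus trunk, 1 day), -0.763 at base 2177 of DN1568_c0_g1_i6 (trunk minus tail, 2 days), -0.333 at base 247 of DN1930_c0_g2_i6 (trunk minus tail, 1 day) and 0 at base 744 of DN13046_c0_g1_i1 in both comparisons. The remaining neighbours had no shared day. Of the 19, 4 were themselves called, and these were bases 3538 and 3806 of DN678_c0_g2_i4 and bases 1999 and 2022 of DN1290_c0_g1_i7, each the other's neighbour. Most of the 19 lay on these 2 contigs. A neighbour between 2 called sites counts for each, such as base 1781 of DN1290_c0_g1_i7 for head minus trunk. Those within 0.05 of 0 had control shares of 0.471 to 0.792, so the limit of the listing bears on them too.

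**Figure D5:**
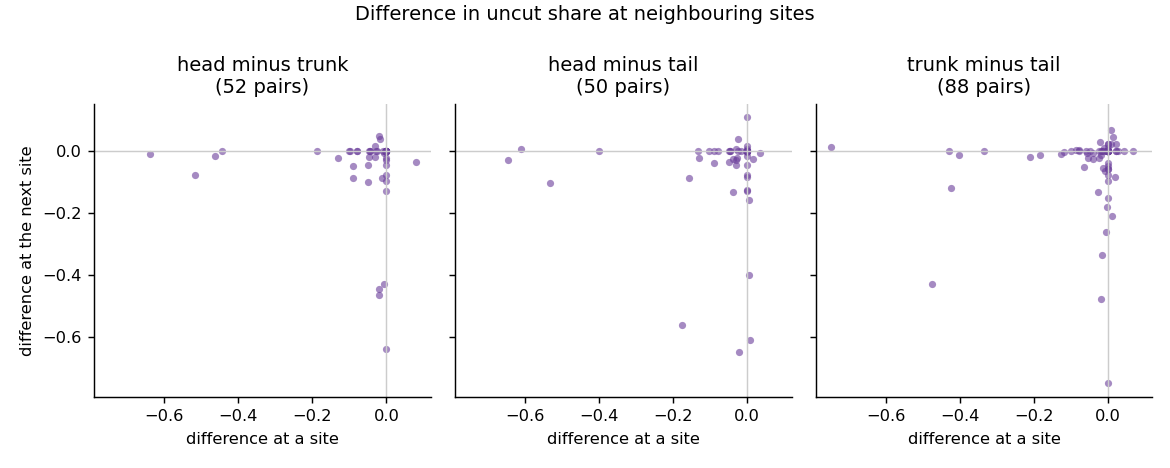
Difference in uncut share between 2 tissues at a site (x axis) and at the next compared site on the same contig (y axis), with 52, 50 and 88 pairs. Each value is a mean over at least 3 shared days, and listed sites with fewer shared days are skipped. Most large drops lie along the axes, with the other site of the pair near 0. In 1 of 8, 2 of 8 and 2 of 12 pairs with a drop over 0.2 the other site was lower by over 0.05 too.

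Neighbours up to 100 bases apart were listed in the same libraries more often than those further apart. The share of libraries listing both sites, of those listing either, had a median of 0.642 at gaps up to 30 bases. It was 0.467 above that up to 100, 0.2 from there to 300 and 0.236 beyond 300. For pairs that were not neighbours the median was 0.2, and 0.5, 0.4, 0.2 and 0.2 at the same gaps. Most of these pairs, 2634 of 3728, lay over 300 bases apart. Read depths of neighbouring sites rose and fell together (median r of log2 reads 0.934 over 174 neighbouring pairs, 0.768 over 589 others). Among neighbours this r did not fall steadily with distance. It was 0.961 at gaps up to 30 bases, 0.944 above that up to 100, 0.842 from there to 300 and 0.965 beyond 300. For the others it was 0.835 (5 pairs), 0.764, 0.683 and 0.78 at the same gaps, and 441 of the 589 lay over 300 bases apart. DN4494_c2_g1_i2 gives an example of close neighbours, with sites at bases 568 and 575 both listed in all 18 libraries. Their median reads were 260 and 261 in trunk and 47 and 47 in tail, with an uncut share of 1 in every library. Nearby sites can be covered by the same reads, and the part of this in joint listing was not tested.

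Taken over all gaps, the uncut shares themselves moved together only weakly from library to library. Of 175 neighbouring pairs listed together in at least 6 libraries, 114 had a site that never varied. In the other 61, on 24 contigs, the median r over libraries was 0.198, with 38 pairs above 0, and 0.125 in 278 pairs that were not neighbours. Among neighbours it was 0.0141 at gaps up to 30 bases (10 pairs) and 0.447 above that up to 100 (15 pairs). It was 0.246 from there to 300 (30 pairs) and -0.0647 beyond 300 (6 pairs). With the tissue means removed, so that only days remained, the median r of neighbours was 0.0287. On DN678_c0_g2_i4 the median was -0.015 over 17 pairs, and on the other contigs 0.301 over 44. These points share libraries and depth, and in counts as sparse as these correlations of these sizes are no finding.

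Among 48 neighbouring pairs with both sites in at least 12 libraries, those with the smallest and the largest gaps had shares mostly at or near 1. At bases 2554 (minus) and 2557 (plus) of DN1568_c0_g1_i6, the first ran from 0.737 to 0.909 in trunk and from 0.763 to 0.958 in tail, while the second was at 1 in trunk and from 0.956 to 1 in tail. At bases 2348 and 2351 of DN5042_c0_g1_i7 all shares were 0.968 or more. The widest neighbours were bases 2895 and 4865 of DN23_c0_g1_i21, 1970 bases apart and at 1 in every listing library. In that pair the medians were 1 to 6 reads in every tissue. DN180_c0_g1_i11 followed with gaps of 1092 bases, where the site at base 1613 ran from 0.8 to 1 in head and its partner at base 2705 was always at 1, and 702 bases, where base 555 ran from 0.948 to 1 in trunk and base 1257 was always at 1.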

How the data were processed

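The 18 deposited tables, 1 per tissue library, list motif positions on transcript contigs. Per the file headers and as tested on the values, each gives whole-number counts of reads, uncut and total, for the library and for the control, the fraction of reads uncut in each, and the library fraction minus the control fraction. Contig length in bases is the other deposited column used. The submitters' processing notes name fastp 0.20.0, HISAT2 2.4.2 and FastQC. The control's read counts are headed fto_IVT, and the labels describe the control only as an in vitro transcription library, so the meaning of fto is not settled. The sources used here do not give how reads were counted and filtered. The values show no level below 0.1.

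Member contigs and the named ones were chosen with earlier results of these data known. Named were the 10 contigs with the most sites, the 5 densest, the 3 with the most minority-strand sites, those with a called site, and the 2 with the largest mean tissue difference in each direction per pair; on them, the called sites and, on the first 10, the highest and lowest; and the 3 neighbouring pairs with the smallest and the 3 with the largest gap.

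Tissue differences in uncut share were averaged over sites, then contigs, at sites listed in both libraries of a day, and tested by an exact two-sided sign-flip permutation test over 6 days, adjusted over 3 pairs by Benjamini-Hochberg. Single sites were fitted with limma 3.58.1 (R 4.3.3; Python 3.11.15 elsewhere) on the deposited level with day as a block, adjusted p under 0.05 over the whole table; days pair the libraries because the labels give each tissue the same 6 time points. The fits were tested on simulated data. Alternatives covered the site threshold, weighting, read minimum, scale, model, block and each day left out; those with at least 50 reads and with a control share under 0.5 were chosen after seeing the data. Depth is given with the values, and differences cover only the spread between libraries.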

Additional observations from a re-analysis of the deposited data

Results flagged for a closer look

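In 45 groups of libraries, 9 held a library that a Dixon outlier test set apart from the others of its tissue. For normally distributed values chance gives about 1 in 20 groups. Uncut shares are capped at 1 and often lie close to it, so a small departure can be flagged. The count of 9 can therefore not be set against that rate. The minority-strand share of tail was lowest on day 1, at 5.82%. The other 8 are pooled uncut shares of single contigs. In head on day 5, DN42680_c3_g1_i2 stood at 0.897 on 273 reads, DN2158_c0_g1_i12 at 0.79 on 1733 reads and DN60241_c0_g1_i1 at 0.589 on 56 reads, each below the other head libraries. In tail on day 7, DN2158_c0_g1_i12 stood at 0.999 on 1366 reads and DN111_c0_g1_i1 at 0.968 on 347 reads. DN420_c1_g1_i2 in trunk on day 10 stood at 0.871 on 201 reads, DN2230_c1_g4_i1 in head on day 3 at 0.947 on 19 reads, and DN180_c0_g1_i11 in head on day 1 at 0.981 on 531 reads.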

How the results depend on the processing

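Tissue differences on the members stayed negative under all alternatives run. Without 1 day they ranged from -0.0431 to -0.0378 for head minus trunk, from -0.0558 to -0.0474 for head minus tail and from -0.0599 to -0.0488 for trunk minus tail, and 5 days cannot give a p under 0.0625. Trunk minus tail with reads pooled was -0.0114. The gap to other contigs, which passed under none of them after adjustment, changed sign for head minus trunk with each site weighing the same (-0.0069), and for trunk minus tail with at least 10 reads (-0.0021), with 5 or more sites (-0.00314), without the contig with the most sites (-0.000188) and without 1 day (-0.00592 to 0.00533). Day 0 minus later days turned to -0.0103 with reads pooled and -0.00214 with at least 50 reads. The called sites (9, 9 and 4 for head minus trunk, head minus tail and trunk minus tail) became 44, 21 and 37 on a logit scale, 18, 14 and 15 in the quasi-binomial model, and 20, 16 and 12 with no replicate block, which leaves the pairing by day out. With at least 10 reads head minus trunk gave 14 and trunk minus tail 7, and sites on at least 3 days gave 5 for head minus trunk. Without 1 day the counts ran from 4 to 14, 4 to 15 and 2 to 5. At day 0, 2 sites were called when any tissue was admitted. The causes of these changes were not tested. Keeping 1 contig per assembled gene changed nothing, since each member is its own gene.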
